A study of Mus musculus with 3 samples.

Results

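The Hox cofactor genes *Meis1*, *Meis2*, *Meis3*, *Pbx2*, *Pbx3*, *Pknox1* and *Pknox2* were taken by symbol, by a rule that uses no measured value though earlier results of these data were known when it was set, and all 7 were found among the 32285 genes of the single-cell count matrices. Counts of unique molecular identifiers (UMIs, each standing for 1 captured transcript) were taken from 3 libraries of whole kidneys of B6 mouse embryos at E15.5 (embryonic day), 1 library per group. The Enl-WT group (Enl +/+ Wt1 GFPCre/+) had normal *Enl*, and the Enl-T1 group (Enl flox-T1/+ Wt1 GFPCre/+) had 1 *Enl* allele that Cre switches to the T1 form, a Wilms tumor insertion in the YEATS domain of the chromatin reader ENL (gene *Mllt1*). The Enl-T1 TDI-11055 group had the Enl-T1 genotype, and the mothers received 100 mg/kg of TDI-11055, a blocker of the acyl-binding pocket of ENL, by mouth daily from E10.5 to E14.5. All groups carried the Wt1 GFPCre knock-in, which inactivates 1 copy of *Wt1* and drives Cre in the progenitors of nephron and stroma but not in the ureteric or endothelial lineages. Each library pooled kidneys from several embryos, with no record of which cell came from which embryo, so no test between groups was possible, no p-value is given, and every interval is a 95% interval for counting error only.

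MEIS, PBX and PKNOX proteins belong to the TALE class of homeodomain transcription factors, named for a loop of extra residues in the homeodomain. MEIS and PKNOX proteins pair with PBX proteins, which helps to hold PBX in the nucleus, and PBX and MEIS bind DNA together with HOX proteins and sharpen the sites that these choose. In the developing kidney, MEIS1 is widely used as a marker of the stroma, the supporting mesenchyme that arises largely from *Foxd1* progenitors, while nephrons arise from *Six2* progenitors and collecting ducts from the ureteric epithelium.

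The filter of 1000 to 6000 detected genes and at most 10% mitochondrial UMIs kept 5233 of 7186 barcodes in Enl-WT, 4144 of 6575 in Enl-T1 and 2754 of 6453 in Enl-T1 TDI-11055, with medians of 5090, 9391 and 16932 UMIs per cell. The libraries also differed in the median share of ribosomal protein UMIs (16.5%, 26.8% and 27.9%) and in the share of cells that had *Xist* but no UMI from the Y chromosome (26.5%, 73.3% and 35.1%), and with 1 library per group such differences and the groups cannot be told apart. Pairs of libraries shared 5 to 8 of the kept barcode sequences. Levels are given as CPM, the UMIs of a gene per 1000000 UMIs of all genes in the same cells. The level of *Mllt1* was 25.1 CPM (23.4 to 26.9) in Enl-WT, 17.1 (15.9 to 18.4) in Enl-T1 and 18.8 (17.6 to 20.2) in the Enl-T1 TDI-11055 library, and 3′ end counts cannot tell the T1 allele from the normal one. Cells were clustered without the cofactor and *Hox* genes and named from marker genes, so that no class below rests on the level of a member. Nephron progenitors named for the markers of the self-renewing state (NP1-like) numbered 843, 781 and 732 cells and *Foxd1* stroma progenitors (Foxd1-like) 410, 505 and 185 in the 3 libraries in the order above. The summed NP1 markers were 1776, 718 and 1283 CPM in NP1-like cells, and the *Foxd1* stroma markers were 2047, 939 and 1486 CPM in Foxd1-like cells, so both classes were named from markers that themselves differed between the libraries. Of the 4 NP1-like clusters, the 1 led by *Rspo3* and *Cited1* (718 of 2356 cells) had NP1 markers among its 10 leading genes. That cluster held 347 of the 843 Enl-WT cells, 174 of 781 in Enl-T1 and 197 of 732 in Enl-T1 TDI-11055. The make-up of the NP1-like class thus differed between the libraries. The other 3 clusters, led by cell cycle genes or by *Hist1h2bc* and *Saa1*, had 0 such markers and were named by the mean fold of the whole marker list. NP2 markers, of committed progenitors, summed to 304, 551 and 316 CPM in NP1-like cells, and 82.1% of these cells were still named NP1-like when the cofactor and *Hox* genes took part in the clustering. Of the 4 Foxd1-like clusters, 2 had *Foxd1* stroma markers among their 10 leading genes and 2 were led by cell cycle genes.

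*Meis1* lies on the minus strand of chromosome 11 (GRCm38, 18879817 to 19018985) and was a stroma and progenitor gene in all 3 libraries. In Enl-WT its level was 378 CPM in Foxd1-like cells (352 to 406), 320 in other stroma (262 to 388), 265 in medullary stroma (221 to 316), 116 in NP1-like cells (106 to 126) and 81.0 in renin or mesangial cells (63.1 to 102). The intervals of Foxd1-like cells and other stroma overlapped, and those of both stood clear of NP1-like cells. Lower down the nephron the level was 40.7 CPM in committed progenitors (NP2-like), 27.7 in podocyte-like, 19.8 in proximal tubule-like and 6.90 in distal tubule or loop of Henle-like cells. It was 1.25 CPM in ureteric tip cells (7 UMIs in 935 cells), which serve here as the reference for free RNA. With every cell thinned to 2000 UMIs, *Meis1* was detected in 53.1% of Foxd1-like and 21.6% of NP1-like Enl-WT cells against 0.218% of tip cells, and without thinning in 78.8%, 43.5% and 0.749% (median depths of 4408, 5084 and 5393 UMIs).

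*Meis2* lies on the minus strand of chromosome 2 (115863064 to 116065839) and was high in stroma, nephron progenitors and endothelium together. Its Enl-WT level was 881 CPM in other stroma (782 to 989), 879 in Foxd1-like (838 to 920), 791 in NP1-like (766 to 817), 560 in medullary stroma (495 to 631), 548 in endothelial (522 to 576) and 448 in renin or mesangial cells (404 to 495). The interval of other stroma overlapped those of Foxd1-like and NP1-like cells, which did not overlap each other. It then dropped along the nephron, with 165 CPM in NP2-like, 156 in podocyte-like, 40.1 in proximal tubule-like and 39.5 in distal tubule-like cells, and stood at 6.44 CPM in ureteric tip cells. After thinning, 81.0% of Foxd1-like and 77.0% of NP1-like Enl-WT cells had a *Meis2* UMI, against 0.871% of tip cells (94.9%, 95.4% and 3.21% without thinning).

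**Figure D1:**
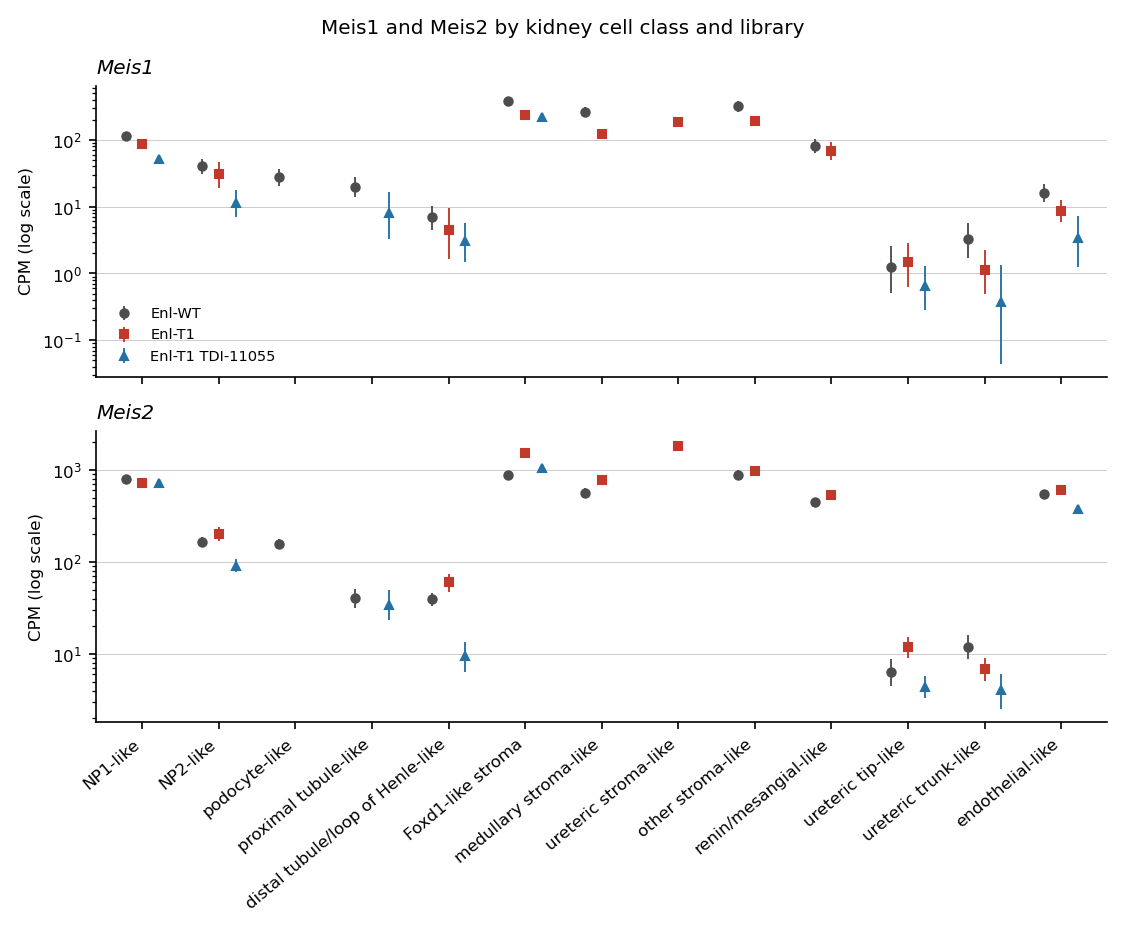
*Meis1* and *Meis2* levels in CPM (vertical axes) by cell class (horizontal axis) for the 3 libraries, with 95% intervals for counting error, in each class with at least 50 cells in a library. *Meis1* was highest in Foxd1-like cells in each library (378, 232 and 219 CPM) with Enl-WT on top, while *Meis2* in Foxd1-like cells was highest in Enl-T1 (1527 CPM against 879 and 1047).

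The remaining members had other patterns. *Meis3* (chromosome 7, 16175090 to 16186504, plus strand) was scarce, with Enl-WT levels of 29.0 CPM in medullary stroma (15.9 to 48.7, from 14 UMIs), 11.04 in NP1-like and 7.87 in Foxd1-like cells. *Pbx2* (chromosome 17, 34591266 to 34597400, plus strand, partly overlapped on that strand by *Gpsm3*) was found in every named class: its Enl-WT levels there ran from 53.2 CPM in renin or mesangial cells to 92.0 in NP1-like cells, with podocyte-like cells apart at 217 CPM (195 to 240). *Pbx3* (chromosome 2, 34171457 to 34373142, minus strand) was as widely spread, from 20.3 CPM in proximal tubule-like and 29.5 in ureteric trunk cells to 77.2 in Foxd1-like and 113 in other stroma (79.4 to 155). The *Pbx2* level in podocytes stood clear of all other named Enl-WT classes, whereas the *Pbx3* intervals of Foxd1-like cells and other stroma overlapped.

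*Pknox1* (chromosome 17, 31564734 to 31607693, plus strand) was the most even member in Enl-WT, with a range of 1.89-fold over the 12 named classes, from 27.4 CPM in other stroma to 51.8 in NP1-like cells. In the other libraries the *Pbx2* range was narrower, at 1.54-fold over 11 classes of Enl-T1 and 1.53-fold over 8 of Enl-T1 TDI-11055. *Pknox1* had 2.37-fold and 2.49-fold there. Those ranges left out podocyte-like cells, which were too few (45 cells at 79.9 CPM of *Pbx2* and 29 cells at 130 CPM). In Enl-WT this class had the highest *Pbx2* level (217 CPM), and the other named classes ran from 53.2 to 92.0 CPM. The change in the most even member thus does not show a difference between libraries. *Pknox2* (chromosome 9, 36890982 to 37147407, minus strand) was found mainly in stroma and podocytes. Its Enl-WT level was 24.7 CPM in podocyte-like cells (17.8 to 33.5), 24.4 in other stroma, 20.7 in medullary stroma and 10.8 in Foxd1-like cells, against 1.91 in NP1-like cells. No *Pknox2* UMI was seen in NP2-like cells of any library (upper limits of 2.35, 5.16 and 2.10 CPM) or in ureteric tip cells (upper limits of 0.659, 0.674 and 0.300 CPM).

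**Figure D2:**
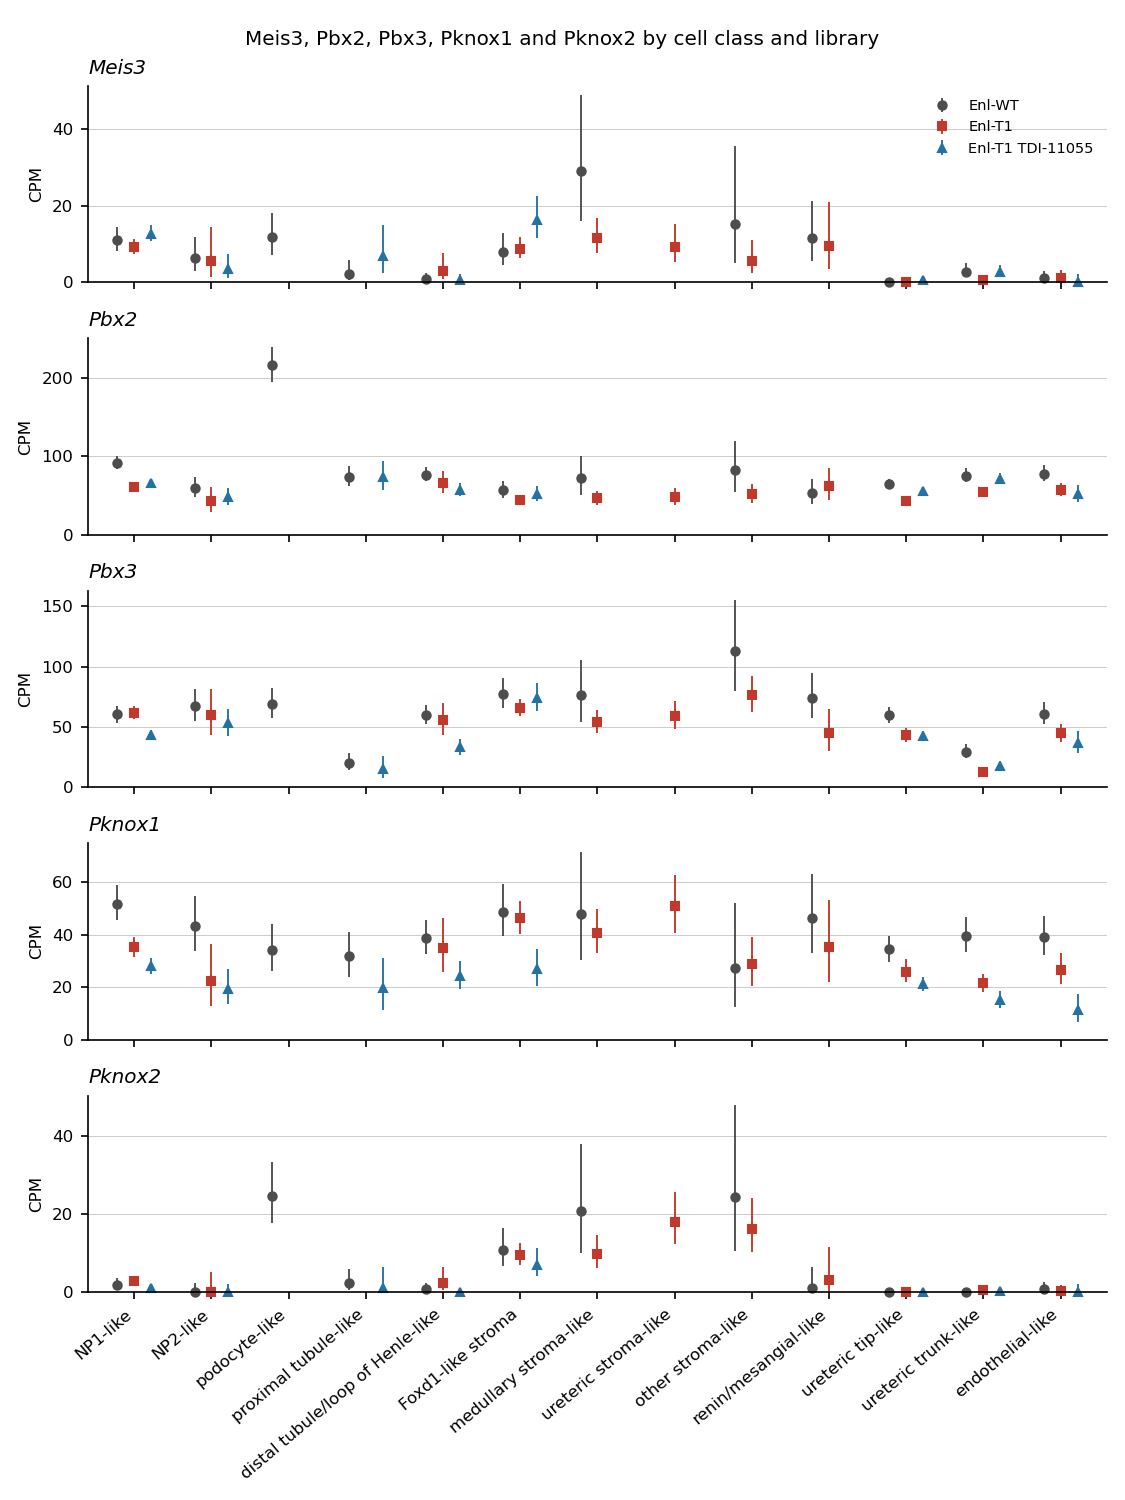
Levels in CPM (vertical axes) of *Meis3*, *Pbx2*, *Pbx3*, *Pknox1* and *Pknox2* by cell class (horizontal axis) in the 3 libraries, with 95% intervals for counting error. *Pbx2*, *Pbx3* and *Pknox1* were found in each class shown, *Pbx2* stood highest in Enl-WT podocyte-like cells at 217 CPM, and *Pknox2* was highest there as well, at 24.7 CPM.

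Enl-T1 was then set against Enl-WT within the classes of the lineages where Cre acts. In Foxd1-like cells the *Meis* genes parted: *Meis1* was lower and *Meis2* higher in Enl-T1. *Meis1* had 378 CPM in Enl-WT, 232 in Enl-T1 (219 to 246) and 219 in Enl-T1 TDI-11055 (200 to 239), a ratio of Enl-T1 to Enl-WT of 0.614 (0.560 to 0.674). *Meis2* had 879, 1527 (1492 to 1562) and 1047 CPM (1005 to 1090), a ratio of Enl-T1 to Enl-WT of 1.74 (1.65 to 1.83). Both genes kept these directions in each of the 3 Foxd1-like clusters with at least 50 cells in both libraries, with ratios of 0.564 to 0.702 for *Meis1* and 1.58 to 1.96 for *Meis2*. Thinned to 2000 UMIs, the share of Foxd1-like cells with *Meis1* was 53.1% in Enl-WT and 33.1% in Enl-T1, and the share with *Meis2* was 81.0% and 88.5%.

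A difference of at least 1.4-fold, the size the study's methods used, is counted as a call below, among genes with at least 5 CPM on average in the libraries compared. A gene under 5 CPM in 1 library could thus pass through the other alone, which favours a call. In Foxd1-like cells all 7 members passed that minimum, and 1 was higher (*Meis2*) and 1 lower (*Meis1*) in Enl-T1. Over all genes tested there, 10.3% were higher and 33.7% lower, so the lower call of *Meis1* was of a common kind. The median log2 ratio over all genes was -0.26, and for the genes in the same exonic length group as *Meis1* and *Meis2*, the longest of 5 groups of equal size, it was -0.56. Set beside these genes of similar length, 62.5% had a higher ratio than *Meis1* (log2 ratio -0.70), and 2.51% had a higher ratio than *Meis2* (log2 ratio 0.80). Under median-of-ratios scaling, which sets the median gene near no change, *Meis1* was at -0.45, which is no longer a call, and *Meis2* at 1.05, with 18.8% of genes higher and 17.9% lower.

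The other members of Foxd1-like cells moved less between Enl-WT and Enl-T1. *Pbx2* had 57.5 and 44.5 CPM, a ratio of 0.773 (0.615 to 0.977), and the ratios of *Meis3*, *Pbx3*, *Pknox1* and *Pknox2* were 1.10, 0.852, 0.948 and 0.880, each with an interval that included 1. Median-of-ratios scaling turned the sign for *Pbx3*, *Pknox1* and *Pknox2* (log2 ratios of 0.018, 0.17 and 0.064).

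In NP1-like cells, on the CPM scale, *Meis2* differed little between the libraries, while *Meis1*, *Pbx2* and *Pknox1* were lower in Enl-T1. *Meis2* had 791 CPM in Enl-WT, 726 in Enl-T1 (709 to 744) and 722 in Enl-T1 TDI-11055 (707 to 737), a ratio of Enl-T1 to Enl-WT of 0.918 (0.882 to 0.955) that turned to the other side of 1 under median-of-ratios scaling (log2 ratio 0.21 in place of -0.12). *Meis1* had 116, 85.3 (79.5 to 91.3) and 52.1 CPM (48.1 to 56.3), with a ratio of Enl-T1 to Enl-WT of 0.738 (0.661 to 0.824), or -0.11 in place of -0.44 on the log2 scale under median-of-ratios scaling. The *Meis1* intervals did not overlap between any pair of libraries. *Pbx2* had 92.0, 60.5 and 65.7 CPM, a ratio of 0.658 (0.580 to 0.748), and *Pknox1*, which codes for a partner of PBX, had 51.8, 35.2 and 27.8 CPM, a ratio of 0.679 (0.574 to 0.804). *Pbx3* had 60.3, 61.8 and 43.6 CPM and *Meis3* 11.04, 9.19 and 12.7 CPM, with Enl-T1 to Enl-WT ratios of 1.02 (0.888 to 1.19) and 0.832 (0.584 to 1.20). Of the 6 members with enough counts in NP1-like cells, 0 were higher and 2 lower (*Pbx2* and *Pknox1*), where 7.75% of all genes were higher and 39.5% lower, so members were called lower about as often as genes at large. Under median-of-ratios scaling 0 members were called, with 17.6% of genes higher and 18.6% lower, and *Pknox2*, with 9, 27 and 12 UMIs, was below the minimum. Over the whole nephron lineage the median log2 ratio of Enl-T1 to Enl-WT was -0.41 for all genes. It was -0.73 for the exonic length group of *Pknox2* (10335 bases, beside 10532 for *Meis1* and 12043 for *Meis2*). A lower CPM of a long gene was thus common in this lineage.

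**Figure D3:**
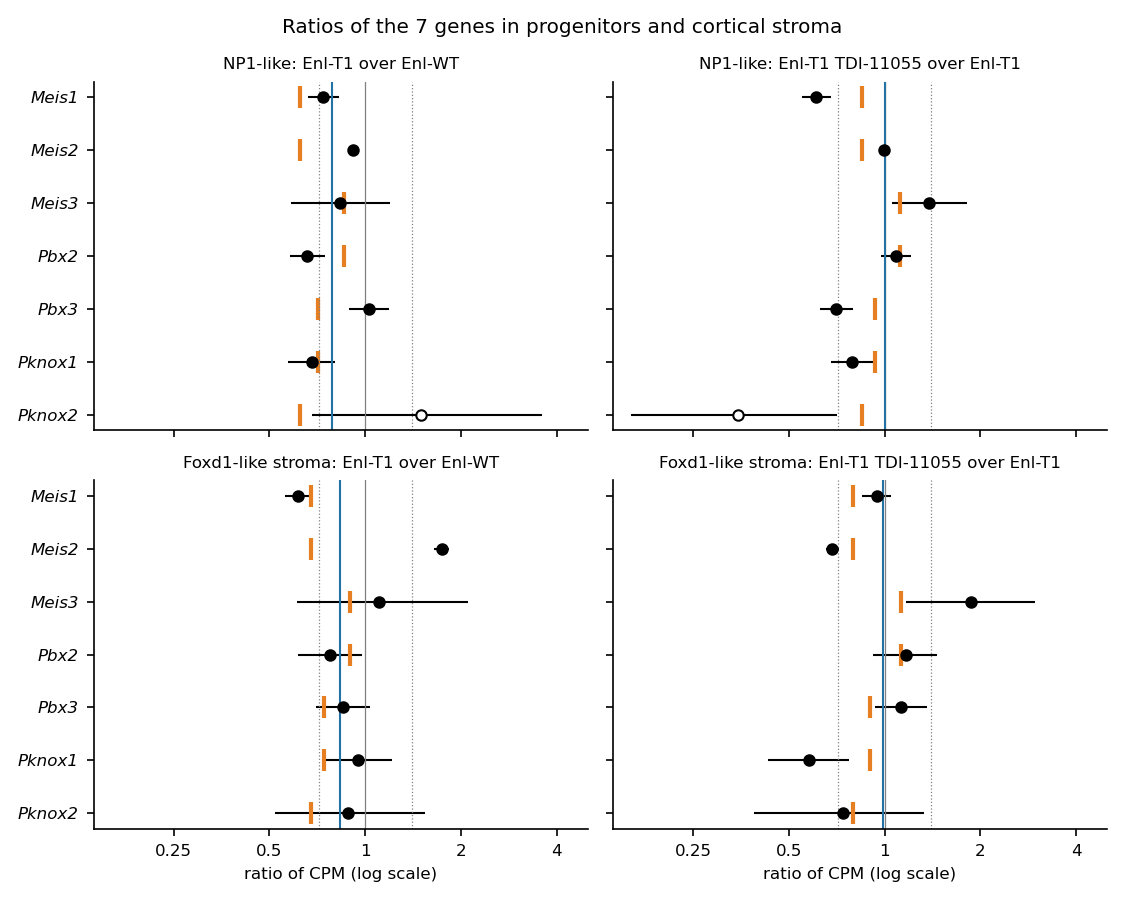
Ratios between libraries (horizontal axis, log scale) of each member in NP1-like and Foxd1-like cells, with 95% intervals for counting error. Filled points had at least 5 CPM, open points less; dotted lines mark 1.4-fold, the blue line the median of all genes and orange ticks the median of genes in the same exonic length group (the tested genes in 5 groups of equal size). *Meis2* stood at 1.74 in Foxd1-like cells of Enl-T1 over Enl-WT, and *Meis1* at 0.614.

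The ratio of the *Meis* genes to each other does not depend on how the libraries were scaled, and it was followed as UMIs of *Meis2* per UMI of *Meis1*. In Foxd1-like cells it was 2.32 in Enl-WT (2.13 to 2.53), 6.57 in Enl-T1 (6.17 to 7.01) and 4.78 in Enl-T1 TDI-11055 (4.34 to 5.27). In NP1-like cells it was 6.85 (6.26 to 7.51), 8.52 (7.92 to 9.18) and 13.9 (12.8 to 15.1). Both classes had the lowest value in Enl-WT, but the highest was in Enl-T1 for Foxd1-like cells and in Enl-T1 TDI-11055 for NP1-like cells. Medullary stroma, with 2.11 in Enl-WT (1.70 to 2.62) and 6.49 in Enl-T1 (5.72 to 7.38), and other stroma, with 2.75 (2.19 to 3.47) and 5.11 (4.48 to 5.83), had higher values in Enl-T1 as Foxd1-like cells did. The endothelium, where the T1 allele is not switched on by this Cre, also had a higher value in Enl-T1 (69.4, interval 47.9 to 105, against 33.8, interval 25.3 to 46.1).

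**Figure D4:**
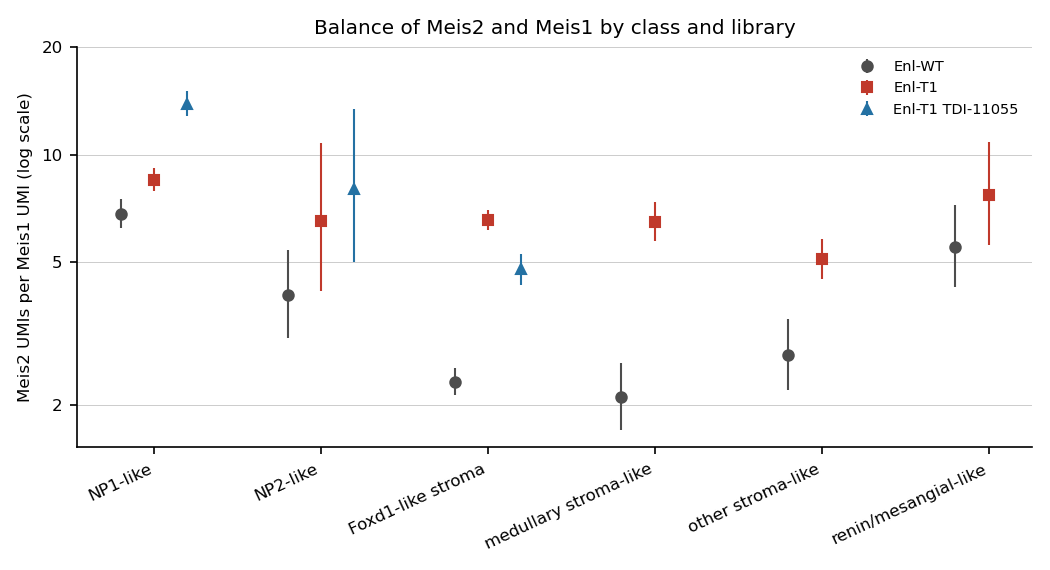
UMIs of *Meis2* per UMI of *Meis1* (vertical axis, log scale) by class and library, with 95% intervals for counting error. Foxd1-like cells stood at 2.32 in the Enl-WT library, at 6.57 in Enl-T1 and at 4.78 in Enl-T1 TDI-11055, while NP1-like cells went from 6.85 to 8.52 and 13.9.

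The same genes were read in the rest of the stroma and of the nephron. In medullary stroma (138 Enl-WT and 359 Enl-T1 cells) *Meis1* had 265 and 121 CPM, a ratio of 0.455 (0.368 to 0.564), and *Meis2* 560 and 783 CPM, a ratio of 1.398 (1.23 to 1.59) that fell just short of a call. In other stroma *Meis1* had 320 and 192 CPM (ratio 0.599, interval 0.477 to 0.758) and *Meis2* 881 and 979 CPM (ratio 1.11, interval 0.979 to 1.27). The highest *Meis2* level of any class in these data was in Enl-T1 ureteric stroma, at 1824 CPM (1761 to 1889) over 232 cells; only 47 Enl-WT and 10 Enl-T1 TDI-11055 cells were of that class, too few to be compared. In NP2-like cells the *Meis2* level was 165, 201 and 91.2 CPM, with a ratio of Enl-T1 to Enl-WT of 1.22 (0.991 to 1.51). Distal tubule-like cells had 39.5 CPM in Enl-WT and 59.99 in Enl-T1 from 149 and 81 UMIs, a ratio of 1.52 (1.14 to 2.00). The nephron cells that stayed unnamed (66 and 281 cells) had the highest ratio of any class compared, at 282 and 679 CPM (2.41, interval 1.93 to 3.03). They were a mix of clusters, of which the one led by *Sst* and *Akap12* held 36 Enl-WT and 211 Enl-T1 cells, and the part of this mix in the ratio was not tested.

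Over the whole nephron lineage, in contrast to its NP1-like cells, *Meis2* was higher in Enl-T1: 330 CPM in Enl-WT (320 to 339), 604 in Enl-T1 (592 to 617) and 485 in Enl-T1 TDI-11055 (475 to 495), a ratio of Enl-T1 to Enl-WT of 1.83. NP1-like cells, which held 81.8%, 79.4% and 95.1% of the nephron *Meis2* UMIs, made up 38.1% of the nephron cells in Enl-WT, 60.03% in Enl-T1 and 54.6% with TDI-11055. Unnamed nephron cells went from 2.98% of the nephron cells in Enl-WT to 21.6% in Enl-T1, and from 1.87% to 16.4% of the *Meis2* UMIs. With the class levels of each library weighted by the Enl-WT mix of classes, the *Meis2* levels were 330, 353 and 297 CPM, a ratio of Enl-T1 to Enl-WT of 1.07. The *Meis1* ratio over the nephron went from 1.38 to 0.823 in the same way. In the stroma the fixed mix left most of the difference in place, with *Meis2* at 1.60 in place of 1.78 and *Meis1* at 0.600 in place of 0.645. The weighting used classes of any size, such as podocyte-like (45) and proximal tubule-like (32) cells of Enl-T1. It took NP1-like cells as a single class, so the mix of clusters within that class was not held fixed. In the stroma of Enl-T1 TDI-11055 the classes beside Foxd1-like cells held 29, 27, 17, 10 and 3 cells, so its weighted level is uncertain. Over all kept cells, *Meis2* had 294, 570 and 305 CPM, while stroma was 16.6%, 33.6% and 9.84% of the cells, and the part of these shares in the level was not tested.

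**Figure D5:**
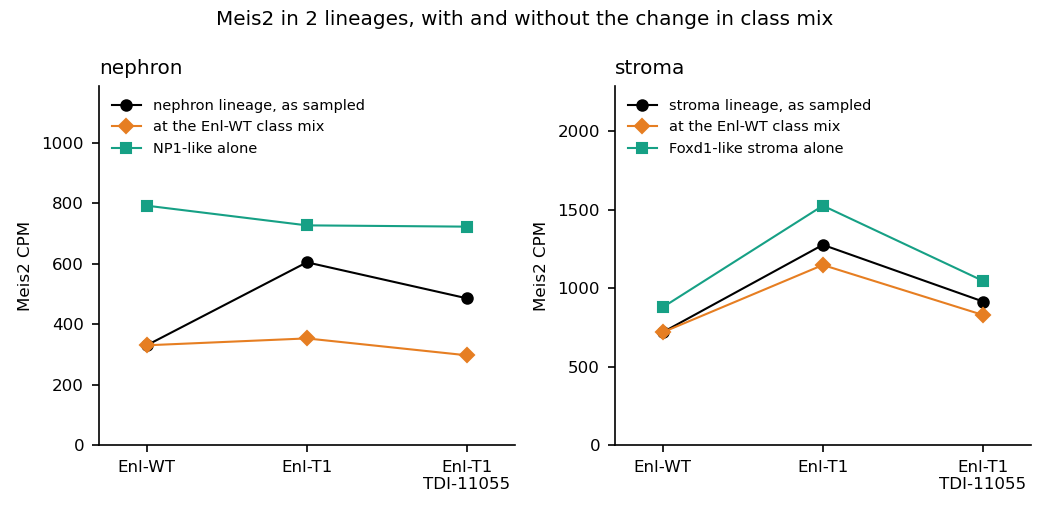
*Meis2* level in CPM (vertical axis) over the whole nephron and stroma lineages in the 3 libraries, as measured and with the class levels weighted by the Enl-WT class mix. Classes with fewer than 50 cells entered the weighting. In the nephron the measured levels of 330, 604 and 485 CPM became 330, 353 and 297 CPM at a fixed mix, and in the stroma 719, 1277 and 915 CPM became 719, 1148 and 829 CPM.

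Enl-T1 TDI-11055 was compared with Enl-T1 to see where the members stood after exposure to the inhibitor; this comparison shares the Enl-T1 library with the one above, so a high or low Enl-T1 value enters both. In Foxd1-like cells *Meis2* was lower with the inhibitor (1527 and 1047 CPM, ratio 0.686, interval 0.655 to 0.718), while *Meis1* was nearly level (232 and 219 CPM, ratio 0.943, interval 0.847 to 1.05). *Pknox1* was lower there (46.1 and 26.8 CPM, ratio 0.580, interval 0.430 to 0.773) and *Meis3* higher (8.69 and 16.2 CPM from 42 and 37 UMIs, ratio 1.87, interval 1.17 to 2.98). In all, 3 of 7 members were past 1.4-fold, 1 higher and 2 lower, against 35.1% of all genes in either direction. In NP1-like cells the reverse held for the *Meis* genes: *Meis2* was nearly level (726 and 722 CPM, ratio 0.994, interval 0.963 to 1.03) and *Meis1* lower (85.3 and 52.1 CPM, ratio 0.611, interval 0.549 to 0.678). *Pbx3* was lower as well (61.8 and 43.6 CPM, ratio 0.705, interval 0.626 to 0.794). These were the 2 lower calls of 6 members tested, with 0 higher, against 10.8% and 9.67% of all genes. Set beside genes of similar length, 91.2% had a higher ratio than *Meis1*.

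Against Enl-WT, a comparison that uses the same libraries again, Enl-T1 TDI-11055 had a *Meis2* level 1.19 times as high in Foxd1-like cells (1.12 to 1.27) and 0.912 times as high in NP1-like cells (0.878 to 0.948). *Meis1* was at 0.579 (0.517 to 0.649) and 0.451 (0.401 to 0.506). With the inhibitor the *Meis2* level of Foxd1-like cells thus lay between those of the other libraries, and the *Meis1* level of NP1-like cells lay below both. After thinning, *Meis1* was detected in 21.6% of Enl-WT, 16.6% of Enl-T1 and 6.85% of Enl-T1 TDI-11055 cells of the NP1-like class, against 0.218%, 0% and 0% of tip cells; the unthinned shares were 43.5%, 56.2% and 45.6%, with medians of 5084, 11325 and 18526 UMIs per cell.

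All 4 NP1-like clusters gave a lower *Meis1* level in Enl-T1 TDI-11055 than in Enl-T1, with ratios of 0.532 to 0.673. In the NP1-like cluster whose leading genes were *Cited1*, *Crym* and *Rspo3*, genes of the uncommitted state, *Meis2* had 1000 CPM in Enl-WT (950 to 1051), 1008 in Enl-T1 (962 to 1055) and 1007 in Enl-T1 TDI-11055 (976 to 1039). In the same cells *Meis1* had 126, 77.3 and 52.0 CPM, *Pbx2* 109, 61.8 and 77.8 CPM and *Pknox1* 45.6, 28.9 and 25.3 CPM. On the CPM scale *Meis2* was thus level to within the counting error in the most progenitor-like cluster, while *Meis1* differed between every pair of libraries. Median-of-ratios scaling raised the Enl-T1 to Enl-WT ratios of both genes in NP1-like cells as a whole, as given above, so this reading depends on the scaling. In the cluster led by *Ube2c*, *Nusap1* and *Ccnb1*, genes of mitosis, *Meis2* was lower in Enl-T1 TDI-11055 than in Enl-T1 (552 and 712 CPM, ratio 0.775, interval 0.717 to 0.837).

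*Meis1* and *Meis2* were found in the same cells about as often as their separate shares would give. After thinning, both were seen in 15.97% of Enl-WT NP1-like cells (13.5 to 18.6), 11.4% of Enl-T1 and 4.79% of Enl-T1 TDI-11055, where the products of the separate shares were 16.6%, 11.6% and 4.37%. In Foxd1-like cells the shares with both were 43.6%, 30.6% and 24.3%, beside products of 43.1%, 29.3% and 20.8%.

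In lineages where this Cre does not act, several members also differed between libraries. In endothelial cells (395, 257 and 116 cells), *Meis2* had 548, 608 and 374 CPM, with a ratio of Enl-T1 to Enl-WT of 1.11 (1.04 to 1.19) and of Enl-T1 TDI-11055 to Enl-T1 of 0.614 (0.562 to 0.671). *Pknox1* had 39.0, 26.6 and 11.2 CPM there, with ratios of 0.681 (0.508 to 0.910) and 0.421 (0.245 to 0.691). The endothelial *Meis1* level was 16.2, 8.76 and 3.36 CPM, from 47, 28 and 6 UMIs. Of the 5 members tested in endothelium, 2 (*Meis1* and *Pknox1*) were lower by at least 1.4-fold for Enl-T1 against Enl-WT, as were 36.5% of all genes. For Enl-T1 TDI-11055 against Enl-T1, 3 were lower (*Meis2* as well), as were 22.9% of all genes. In that comparison *Meis1* passed the minimum only through Enl-T1 (8.76 against 3.36 CPM), so the filter favoured its lower call. *Pbx2* (78.1, 57.2 and 52.0 CPM) and *Pbx3* (60.8, 44.7 and 36.9 CPM) were lower by less than 1.4-fold. The summed stroma markers in endothelial cells moved the same way as *Meis1* there, at 286, 220 and 92.8 CPM, and their part in the *Meis1* values was not tested. In ureteric trunk cells *Pbx3* had 29.5, 13.0 and 17.7 CPM, a ratio of Enl-T1 to Enl-WT of 0.441 (0.330 to 0.588), against 59.7, 42.9 and 42.9 CPM in tip cells, where the ratio was 0.719 (0.606 to 0.852).

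The *Hox* genes, whose products the members assist, and the other TALE genes were counted in NP1-like cells for reference. Of 39 *Hox* genes, 31 passed the minimum for Enl-T1 against Enl-WT, and 25 were higher and 1 lower, with a median log2 ratio of 0.83 beside -0.35 for the members and -0.34 for all genes. Over all genes tested, 7.75% were higher and 39.5% lower. The largest ratios were those of *Hoxc11* (7.07, interval 5.20 to 9.83), *Hoxd12* (6.36) and *Hoxa3* (4.59), and the lower one was *Hoxb8* (0.687). For Enl-T1 TDI-11055 against Enl-T1, 2 of 32 were higher (*Hoxb1* at 7.54 and *Hoxb2* at 2.02) and 14 lower, led by *Hoxd3* (0.349), *Hoxd12* (0.374) and *Hoxd4* (0.418). Among all genes tested there, 9.67% were higher and 10.8% lower. How many *Hox* genes passed the minimum through 1 library alone was not counted. In NP1-like cells the *Hox* UMIs per member UMI were 2.08 for Enl-WT, 4.35 for Enl-T1 and 3.71 for Enl-T1 TDI-11055, and they were 0.917, 1.52 and 1.90 in Foxd1-like cells. Most member UMIs were of *Meis2*, so these values mainly set *Hox* genes against *Meis2*. It had 3727 of 5293, 6875 of 9287 and 8766 of 11228 member UMIs in NP1-like cells. In Foxd1-like cells it had 1787 of 2967, 7377 of 9343 and 2385 of 3285. The median ratio of the members thus lay at that of all genes, away from that of the *Hox* genes.

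Of 11 further genes, the other TALE genes (*Irx1* to *Irx6*, *Tgif1*, *Tgif2*, *Mkx* and *Pbx4*) and *Pbxip1*, whose product binds PBX proteins, 3 passed the minimum in NP1-like cells for Enl-T1 against Enl-WT. *Pbxip1* (22.9 and 12.9 CPM, ratio 0.562, interval 0.430 to 0.735) and *Tgif2* (56.7 and 36.7 CPM, ratio 0.647, interval 0.550 to 0.761) were lower, and *Tgif1* was within 1.4-fold (ratio 0.863, interval 0.760 to 0.981). As 39.5% of all genes were lower there, lower calls of this kind were common. With the inhibitor *Pbx4*, which codes for a further PBX protein, was higher (2.64 and 8.81 CPM from 25 and 107 UMIs, ratio 3.34, interval 2.14 to 5.39). It passed the minimum only through Enl-T1 TDI-11055, so the filter favoured this higher call. *Pbxip1* was level (12.9 and 13.5 CPM, ratio 1.05, interval 0.824 to 1.34).

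The genes most like each member were taken as the 3 with the highest Pearson correlation of log2(CPM + 10) over the 31 sums of a class in a library, among 10998 genes; the sums of a library share its depth and preparation, so r is a description. *Meis1* was most like *Cdh11* (r = 0.95), *Lsp1* (0.94) and *B130024G19Rik* (0.93). *Meis2* was most like *2700033N17Rik* (0.94), a gene on the same strand of chromosome 2 (116066218 to 116067444) that lies 379 bases from *Meis2*, and then *Tshz2* and *Cd302* (both 0.91). The leading genes were *Cdh11* for *Meis3* (0.86), *Gm43462* for *Pbx2* (0.86), *Cdc23* for *Pbx3* (0.85), *Pds5b* for *Pknox1* (0.87) and *Frem1* for *Pknox2* (0.94). Among the members themselves *Meis1* and *Meis2* were most alike (0.85), and *Pbx2* was unlike all the others (-0.09 to 0.31).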

How the data were processed

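The deposited matrices held raw counts of UMIs per gene and barcode, which the authors made from 10x Genomics 3′ libraries by aligning to mm10 with Cell Ranger 6.1.2 (the submitters' processing notes). Barcodes were filtered with the limits the study's methods give, and doublets were left in. Seurat 5.3.0 (R 4.3.3) joined the 3 libraries by anchors on 2000 variable genes, without 58 *Hox* and TALE-related genes and 130 genes that follow RNA quality, blood or sex (of mitochondria, ribosomal proteins, haemoglobins, *Xist* and the Y chromosome). Clusters were found for all cells with 30 principal components (resolution 0.5) and again within each lineage with 20 (resolution 0.8). Clusters were named "-like" from marker lists, by the markers among the 10 leading genes and then by their mean fold, and stayed unnamed where markers of another lineage led or fewer than 3 were detected in 10% of cells. Class names were rebuilt, since the files hold none, and can differ from the study's.

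UMIs were summed per class and library and given as CPM of that sum (numpy 2.4.6, scipy 1.17.1, pandas 2.3.3), for classes with at least 50 cells in a library. The weighting by the Enl-WT class mix was the exception and used all classes of a lineage, whatever their size. Levels have exact Poisson intervals, ratios exact binomial intervals from the split of the counts, and shares of cells Clopper-Pearson intervals, at 95% and for counting error only. For shares, cells were thinned to 2000 UMIs and shallower cells left out. The ratio step was tested on simulated counts. Gene positions and exonic lengths are from GENCODE release M21 (GRCm38); the counting of 3′ ends means that levels of different genes are not compared by size. The members and lists were chosen with earlier results of these data known. Besides the members, *Mllt1*, class markers and leading genes of clusters, genes were named by rule: the 3 most like each member, and up to 3 of largest ratio in each direction in NP1-like cells among the *Hox* and other TALE genes. The labels give no treatment for Enl-WT and Enl-T1, while the treatment protocol mentions a vehicle. Scrublet (scanpy 1.11.5) scores were used in the alternative without doublets, which removed 301, 218 and 142 cells.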

Additional observations from a re-analysis of the deposited data

Results flagged for a closer look

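The Enl-T1 to Enl-WT ratio of *Meis2* went in opposite directions in the 2 main ureteric classes, where this Cre does not act. It was 1.84 in ureteric tip cells (1.21 to 2.85; 36 and 65 UMIs, 6.44 and 11.9 CPM) and 0.577 in ureteric trunk cells (0.376 to 0.887; 44 and 49 UMIs, 12.0 and 6.94 CPM). The difference was not tested, since each side is 1 library. The summed stroma markers were 24.5 CPM in Enl-WT and 32.9 in Enl-T1 tip cells and 54.9 and 52.2 CPM in trunk cells, and their part in the *Meis2* values was not tested. Of the named classes compared, 3 had a higher and 1 a lower *Meis2* level in Enl-T1 by at least 1.4-fold with an interval clear of 1, and the unnamed nephron cells, a mix of clusters, had a ratio of 2.41 (1.93 to 3.03).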

How the results depend on the processing

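No paired analysis was possible because each group has 1 library, and for the same reason no replicate could be left out. In Foxd1-like cells the log2 ratio of Enl-T1 to Enl-WT stayed below 0 for *Meis1* and above 0 for *Meis2* in all 10 alternatives each. For *Meis1* (-0.70 as reported) it moved beyond its interval under median-of-ratios scaling (-0.45) and with the total taken without mitochondrial, ribosomal and haemoglobin genes (-0.55). For *Meis2* (0.80) it moved under the same settings (1.05 and 0.95), with cells thinned before summing (0.88), in male cells (0.70) and in clusters led by a marker of the class (0.95), an alternative chosen after seeing the data. In NP1-like cells *Meis1* (-0.44) was at -0.11 and -0.20 under those scalings, -0.18 with the strict filter on cells (at least 2000 genes and at most 5% mitochondrial) and -0.71 in clusters led by a marker. *Meis2* there (-0.12) was at 0.21, 0.12, 0.10 (strict filter), -0.065 (male cells) and 0.012 (led clusters), so its direction depended on the setting. The cause of these moves was not tested beyond the scaling, which shifts every gene alike.

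The count of members called in NP1-like cells for Enl-T1 against Enl-WT (2) was 0 under either scaling, 1 with the strict filter and 4 in led clusters. In Foxd1-like cells (2) it was 1 under median-of-ratios scaling, 4 with the strict filter, 4 in male cells, 4 in female cells and 5 in led clusters. For Enl-T1 TDI-11055 against Enl-T1 it was 1 without the upper gene limit, 4 in male and 1 in female NP1-like cells (2 as reported), and 1 in female Foxd1-like cells (3 as reported). The strict filter left 90 Enl-WT and 214 Enl-T1 Foxd1-like cells, and the male cells of that class were 178 and 71. Apart from median-of-ratios scaling, the share of all genes past 1.4-fold was not counted under these settings. The counts thus describe the settings and are not a result about the members. Of the 240 values for other ratios of the members, 196 stayed within their interval, 44 moved and 0 of those called changed sign. Low counts limit *Meis3* and *Pknox2*, and doublets left in, the upper limit of 6000 genes, which removed 55, 309 and 577 barcodes, and the sex and number of the pooled embryos remain limits for every comparison.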

Other observations

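A cluster of the nephron lineage that stayed unnamed, led by *Sst*, *Akap12* and *Meg3* with *Col1a1* among its leading genes, held 211 Enl-T1 cells against 36 in Enl-WT and 14 in Enl-T1 TDI-11055. *Meis2* had 746 CPM in its Enl-T1 cells (706 to 787) and *Meis1* 122 CPM (106 to 140), levels that lie near those of Enl-T1 NP1-like cells for *Meis2* (726 CPM) and above them for *Meis1* (85.3 CPM). The other libraries had too few of these cells to be compared.

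Ureteric cells left unnamed (244, 229 and 79 cells) had *Meis2* at 123, 116 and 37.3 CPM and *Meis1* at 28.4, 16.7 and 2.38 CPM, above tip and trunk cells of the same libraries for *Meis2*. They included a cluster led by *Vcan*, *Tpm2* and *Col3a1*, with stroma markers among its leading genes, of 70, 35 and 11 cells, and its part in these levels was not tested.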
